A study of Mus musculus with 29 samples.

Results

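RNA from 3 suspensions of lymph node tumour cells was compared with RNA from 4 preparations of spleen B cells, all from Eμ-myc transgenic mice. The 7 libraries were chosen by their labels and by no measured value, out of 29 libraries in the series. Both groups are labelled as C57BL/6 mice with the genotype Tg, so the spleen controls carry the transgene too. The spleen B cells came from animals 6 to 8 weeks old and were enriched on beads that bind B220, a surface marker of B cells. The tumour cells were released by pressing the nodes through a strainer and were used unsorted, and the labels give no age for those animals. Tissue, purification and stage of disease differ together between the groups and cannot be told apart. Libraries are called tumour 1, 2 and 3 and spleen 2, 3, 4 and 5 after the numbers in their titles. Levels in 4 libraries of wild-type C57BL/6 spleen B cells, enriched on the same beads, are set beside some values as a description. The wild-type animals were also 6 to 8 weeks old.

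Myc is a transcription factor that pairs with Max and raises the output of many genes of growth, ribosome production, metabolism and cell division. In Eμ-myc mice a Myc transgene is driven by the enhancer of the immunoglobulin heavy chain locus, which is active in the B lineage. Young carriers have an enlarged pool of dividing B lineage cells without overt cancer, and clonal lymphomas of precursor or immature B cells arise later. Mature B cells of the spleen carry the antigen receptor and its signalling proteins, the chemokine receptor Cxcr5 that leads them to follicles, and receptors such as CD21 and CD23. The spleen also holds red pulp macrophages, which take up old red cells and recycle their iron.

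The deposited values are FPKM, read counts scaled to gene length and library size, for 21819 genes. The files hold no counts. The spacing of low values in rows of microRNA genes showed that 1 read in a gene of 1 kb was worth 1.11 to 1.21 FPKM in the tumours and 0.677 to 1.04 FPKM in the spleen libraries, so values of a few FPKM rest on a few reads. The median gene was at 14.2 to 17.3 FPKM in the tumours and at 11 to 13.8 FPKM in the spleen libraries. No library was a copy of another, since at most 1.56% of the values were equal between any pair. The labels give no sex. Tumours 2 and 3 and spleen 2 and 3 held the female transcript Xist at 2550 to 4788 FPKM and a sum of at most 2.8 FPKM over 4 Y chromosome genes. Tumour 1 and spleen 4 and 5 held these Y genes at a sum of 818 to 1050 FPKM, and tumour 1 also held Xist at 175.1 FPKM, against 0.4 and 0.2 FPKM in spleen 4 and 5. Rpph1, the RNA of ribonuclease P, also separated the spleen libraries, at 545353 and 633095 FPKM in spleen 2 and 3 against 215865 and 208019 FPKM in spleen 4 and 5. Tumours 1, 2 and 3 held 442640, 608649 and 517632 FPKM of it, each nearer to spleen 2 and 3. The labels do not say that the 3 tumours or the 4 spleens came from separate mice, so p-values measure the spread between these samples.

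The B cell label of the tumours was checked first, and it held for tumours 1 and 2 but not for tumour 3. Cd79a, a signalling chain of the B cell antigen receptor, was at 2113, 1673 and 55.6 FPKM in tumours 1, 2 and 3 and at 2168 to 2465 FPKM in the spleens. Pax5 and Ebf1, transcription factors that set and keep B cell identity, were at 109.5 and 18.8 FPKM in tumour 3 and at 1189 to 1402 FPKM in the other two tumours. Vpreb3, a gene of B cell precursors, was at 2103 and 1364 FPKM in tumours 1 and 2 and was listed at 0 in tumour 3. None of these 4 genes passed the test of tumours against spleen (adjusted p = 0.253 to 0.437), and the tumours differed widely among themselves.

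Tumour 3 was high in genes that mark plasmacytoid dendritic cells, the blood cells that make type I interferon. Siglech, their defining surface lectin, was at 11.6, 23.2 and 2655 FPKM in tumours 1, 2 and 3 and at 6 to 15.8 FPKM in the spleens. Over the list of 10 plasmacytoid dendritic cell markers the summed level was 1166, 2997 and 20084 FPKM in tumours 1, 2 and 3 and 2841 to 4894 FPKM in the spleens. Of its members 9 had their highest value of the 7 libraries there, such as Bst2 at 7426 FPKM and Ccr9 at 749.5 FPKM, and Pacsin1 did not, at 11.2 FPKM. Klk1 was the 1 member called higher (log2 fold change 4.59, adjusted p = 0.0218), where 3.56% of all genes rose. Its call was lost without spleen 2, 3 or 5 or tumour 2 (adjusted p = 0.0502 to 0.0649). Without tumour 3, Klk1 was again the 1 member called higher (3.44 and 0.00998), and Cox6a2 was called lower. Salivary gland and pancreas genes rose in each tumour, as described below, and their part in the Klk1 rise was not tested. Irf8, a factor that B cells and dendritic cells share, was at 5195 FPKM in tumour 3 against 900.4 and 656 FPKM in tumours 1 and 2. Cd4 and Cd8b1, surface genes of T cells that some dendritic cells also carry, were at 9468 and 7615 FPKM in tumour 3, while Cd3e, a chain of the T cell receptor complex, was at 62.8 FPKM. The library labelled tumour 3 thus goes against its B cell label, and results that rest on it are given with and without it. These genes of tumour 3 were chosen after their values were seen.

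**Figure D1:**
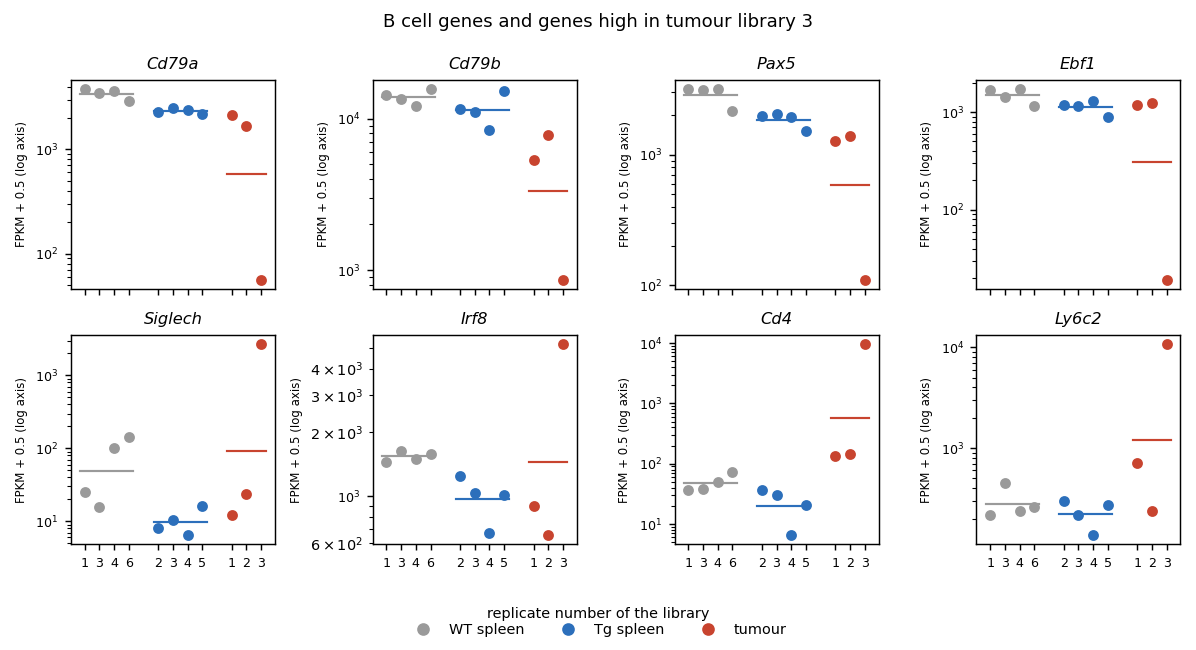
Deposited FPKM (log axis, 0.5 added) of 8 marker genes in each library, as points for wild-type spleen (grey), transgenic spleen (blue) and lymph node tumours (red), with a line at the geometric mean of each group. Tumour 3 lies far below the other tumours for Cd79a and Ebf1 and far above them for Siglech and Cd4.

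Of 21819 genes listed, 14692 had at least 1 FPKM in 3 or more of the 7 libraries and were tested with limma on log2(FPKM + 0.5). At an adjusted p under 0.05, 523 genes (3.56%) were higher in the tumours and 351 (2.39%) were lower, 874 in all (5.95%), and 3409 genes had an unadjusted p under 0.05. Of the called genes 59.8% were higher, or 49.7% after quantile normalization. Of these, 498 higher and 295 lower genes differed at least 2-fold, and the median log2 fold change of all genes tested was 0.02. A log2 fold change here is on the log2(FPKM + 0.5) scale, which understates the change of low genes. In each of the 874 called genes the libraries of the 2 groups formed separate ranges, which was so for 22.4% of the genes tested. Without tumour 3, 506 genes (3.37%) were higher and 414 (2.76%) were lower, 920 in all (6.13%), and 372 and 246 of the main calls were among them. The number of calls fell most without spleen 3 (204 higher, 93 lower). It was also over 1.5 times lower without spleen 2 (277 and 119), without spleen 5 (274 and 126) and without tumour 2 (306 and 211). The 41 gene lists used below held 699 distinct genes tested, of which 70 were higher and 38 lower.

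Myc itself was high in both groups. It was at 2123, 2179 and 1759 FPKM in the tumours and at 1017, 1275, 2408 and 1525 FPKM in the spleens. The groups overlapped, with spleen 4 above each tumour, and the difference did not pass (log2 fold change 0.45, 95% interval -0.26 to 1.15, adjusted p = 0.426). Wild-type spleen B cells held 191 to 273 FPKM of Myc. The files give 1 value per gene, so transcripts of the transgene and of the native gene are counted together. Of 12 genes of the Myc network, none was called in either direction, where 5.95% of all genes were called. Their median log2 fold change was -0.27. Max, the partner of Myc, was at 292 to 297 FPKM in the tumours and at 339.9 to 364 FPKM in the spleens, a small gap without overlap that did not pass (log2 fold change -0.28, adjusted p = 0.299). In limma, 0 of the 12 had an unadjusted p under 0.05.

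Most lists of growth and division genes, the usual companions of high Myc, held no called member. Of 30 genes of nucleolar ribosome biogenesis, 35 ribosomal proteins, 28 genes of oxidative phosphorylation, 28 of DNA replication, 26 of mitosis and 18 replication-dependent histones, 0 were called, against 5.95% of all genes. In limma, 3 of the nucleolar genes, 1 ribosomal protein and 1 histone were higher at an unadjusted p under 0.05, 0 genes of these lists were lower, and the other 3 lists had 0 such genes in either direction. Their median log2 fold changes were 0.18, -0.09, 0.05, 0.07, 0.21 and 0.60. Npm1, a nucleolar chaperone, was at 6587, 6000 and 5819 FPKM in the tumours and at 3691, 5122, 7072 and 6521 FPKM in the spleens, with overlap (log2 fold change 0.17, 95% interval -0.50 to 0.84). Top2a, the topoisomerase of dividing cells, was at 2488, 2974 and 1777 FPKM in the tumours and at 1028, 1566, 4114 and 2522 FPKM in the spleens. Spleen 4 was above each tumour and spleen 2 below each of them for both genes, and their log2 fold changes turned negative where only spleen 4 and 5 served as controls (-0.15 for Npm1, -0.45 for Top2a). Mki67, which encodes the proliferation antigen Ki-67, was at 3440, 2778 and 2175 FPKM in the tumours and at 861, 1284, 3320 and 1329 FPKM in the spleens (log2 fold change 0.89, adjusted p = 0.266). The summed level of the mitosis list was 9704 to 15968 FPKM in the tumours, within the range of 5200 to 20263 FPKM of the spleens.

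Among regulators of the step from G1 to S phase, 2 of 25 genes rose and 1 fell, where 3.56% of all genes rose and 2.39% fell. Cdkn2b, which encodes the kinase inhibitor p15, was at 141, 218 and 50.4 FPKM in the tumours and at 11.2, 5.2, 14.7 and 6.3 FPKM in the spleens (log2 fold change 3.67, SE 0.56, adjusted p = 0.00922). Each tumour was far above each spleen library, and the call held without any 1 library. Ccnd1, cyclin D1, was at 527, 565 and 544 FPKM in the tumours and at 123, 139, 324 and 203 FPKM in the spleens (log2 fold change 1.57, adjusted p = 0.029). Its tumour values were nearly equal, and spleen 4 lay closest to them. Cdkn1b, which encodes the inhibitor p27, fell, with 191, 249 and 239 FPKM in the tumours against 425, 486, 398 and 564 FPKM in the spleens (log2 fold change -1.04, adjusted p = 0.0207). The call of Ccnd1 was lost without spleen 2, 3 or 5 or tumour 1 or 2 (adjusted p = 0.0635 to 0.091), and that of Cdkn1b without spleen 3 or 5 or tumour 1 (adjusted p = 0.0513 to 0.0789). Ccnd2, cyclin D2, was at 46.4, 114 and 47.5 FPKM in the tumours and at 353.5, 311, 177 and 94.4 FPKM in the spleens, overlapping in tumour 2 and spleen 5 (adjusted p = 0.0894).

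Some surface genes of mature B cells fell, with Cxcr5 and Faim3 the 2 whose calls held without any 1 library. Of 26 surface genes, 0 rose and 6 fell, where 2.39% of all genes fell, and the median log2 fold change was -1.60. Without tumour 3 the count was again 6 and the median -1.03, with Cd40 and Tnfrsf13c, receptors for survival signals, in place of Cr2 and Cd1d1. Leaving out 1 library in turn left 2 to 7 falls. Of the 26 genes, 12 lay below the spleens without overlap, against 10.6% of all genes. Cxcr5, the receptor for the follicle chemokine Cxcl13, was at 56.7, 111 and 31.3 FPKM in the tumours and at 1211, 957 and 393 FPKM in spleen 2, 3 and 4 and 1173 FPKM in spleen 5. Even the lowest spleen library was above each tumour (log2 fold change -3.86, SE 0.51, adjusted p = 0.00501, and -3.42 without tumour 3, adjusted p = 0.00857). Faim3, the Fc receptor for IgM, was at 103.5, 251 and 118 FPKM in the tumours and at 2186, 1860, 698 and 1982 FPKM in the spleens (log2 fold change -3.40, SE 0.46, adjusted p = 0.00572).

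Fcer2a, which encodes the IgE receptor CD23, was at 86.6, 122 and 40.7 FPKM in the tumours and at 891, 644, 251.5 and 459 FPKM in the spleens (log2 fold change -2.74, adjusted p = 0.0181). Cr2, the complement receptor CD21, showed a similar span, at 77.1, 126 and 37.9 FPKM in the tumours and at 1723, 1152, 265 and 471 FPKM in the spleens (log2 fold change -3.29, adjusted p = 0.0282). For each of these surface genes spleen 4 was the spleen library nearest to the tumours. The call of Fcer2a was lost without spleen 3 or 5 (adjusted p = 0.0553 and 0.0648), and that of Cr2 without spleen 2, 3 or 5 or tumour 1 or 3 (adjusted p = 0.0502 to 0.0859). S1pr1, the receptor that lets lymphocytes leave tissue, fell from 545 to 976 FPKM in the spleens to 272 to 361 FPKM in the tumours (log2 fold change -1.35, adjusted p = 0.0202), a call lost without spleen 2, 3 or 5 or tumour 1 (adjusted p = 0.0515 to 0.0726). Cd1d1, which presents lipids, fell by 1.48 on the log2 scale (adjusted p = 0.039), a call lost without any 1 library but tumour 1 (adjusted p = 0.0527 to 0.111).

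Part of the signalling chain behind the B cell receptor was lower. Of 24 genes, 0 rose and 6 fell (7 without tumour 3), where 2.39% of all genes fell, with a median log2 fold change of -0.87 (-0.65 without tumour 3). Between 1 and 7 falls were left when 1 library was dropped in turn. Sykb, the kinase that binds the activated receptor, was at 932, 661 and 535 FPKM in the tumours and at 2385, 2186, 2455 and 2504 FPKM in the spleens (log2 fold change -1.78, SE 0.23, adjusted p = 0.005). The spleen values were tight, the tumours lay well below, and the call held without any 1 library. Blnk, the adaptor that links the kinase to its targets, was at 600.3, 373.5 and 352 FPKM in the tumours and at 1218, 1023, 936.5 and 1117 FPKM in the spleens (log2 fold change -1.32, adjusted p = 0.0182). Rasgrp3, an exchange factor that activates Ras after receptor signals, was at 10.3, 54.7 and 15 FPKM in the tumours and at 382, 251 and 97.5 FPKM in spleen 2, 3 and 4 and 202 FPKM in spleen 5 (log2 fold change -3.32, adjusted p = 0.0218). The call of Blnk was lost without spleen 2, 3 or 5 or tumour 2 (adjusted p = 0.0509 to 0.0639), and that of Rasgrp3 without spleen 2, 3 or 5 or tumour 1 (adjusted p = 0.0537 to 0.0755). Lyn, Vav2 and Prkcb, a kinase, an exchange factor and protein kinase C beta, fell by 1.16, 0.90 and 1.35 on the log2 scale (adjusted p = 0.0315, 0.0254 and 0.0435). The call of Lyn was lost without any 1 library but spleen 4 (adjusted p = 0.0555 to 0.105), that of Vav2 without spleen 2, 3 or 5 or tumour 1 (adjusted p = 0.0524 to 0.0921) and that of Prkcb without any 1 spleen or tumour 2 (adjusted p = 0.0713 to 0.119). Blk, a Src family kinase of B cells, was at 495, 691 and 18.9 FPKM in the tumours and at 1091 to 1815 FPKM in the spleens, and it passed without tumour 3 (log2 fold change -1.32, adjusted p = 0.0333) but not with it (-2.96 and 0.148). Btk and Plcg2, further down the chain, did not pass (log2 fold changes -0.55 and -0.54, adjusted p = 0.321 and 0.136).

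Of 20 transcription factors of B cells, 0 rose and 4 fell, where 2.39% of all genes fell, with a median log2 fold change of -1.21 that moved to -0.45 without tumour 3, where 3 fell, and leaving out 1 library in turn left 1 to 4 falls. Spib, an Ets family factor of B cells and plasmacytoid dendritic cells, was at 487, 699.8 and 449 FPKM in the tumours and at 1594, 1669, 1919 and 2502 FPKM in the spleens (log2 fold change -1.82, SE 0.25, adjusted p = 0.0059). Tumour 3 was close to the other tumours for this gene, and the call held without any 1 library. Foxp1 and Ets1, both needed for normal B cell development, fell too. Foxp1 was at 520, 462 and 373 FPKM in the tumours and at 892 to 1074 FPKM in the spleens (log2 fold change -1.16, adjusted p = 0.0132), a call lost without spleen 3 (adjusted p = 0.0591). Ets1 was at 929, 1533 and 644.5 FPKM in the tumours and at 2399 to 3299 FPKM in the spleens (log2 fold change -1.59, adjusted p = 0.0252), and its call was lost without spleen 2, 3 or 5 or tumour 1 (adjusted p = 0.0606 to 0.0819). Mef2c, a factor downstream of the receptor, fell by 1.64 on the log2 scale (adjusted p = 0.047), a call lost without any 1 library but tumour 1 (adjusted p = 0.067 to 0.133). Without tumour 3, the differences of Pax5 and Ebf1 were -0.48 and 0.12 on the log2 scale (adjusted p = 0.268 and 0.802).

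Of 12 genes of the germinal centre and plasma cell stage, 0 rose and 2 fell, where 2.39% of all genes fell, and 4 fell without tumour 3. Igj, the joining chain of secreted IgM and IgA, was at 235, 359 and 416 FPKM in the tumours and at 3064, 1820, 1151 and 1335 FPKM in the spleens (log2 fold change -2.38, SE 0.36, adjusted p = 0.00925), and this call held without any 1 library. Rgs13, a regulator of chemokine signalling in germinal centre cells, was at 0, 0.7 and 1.6 FPKM in the tumours and at 22.6, 18.7, 5.6 and 13.6 FPKM in the spleens. That fall (adjusted p = 0.0172) was lost without spleen 2, 3 or 5 or tumour 2 (adjusted p = 0.0503 to 0.0639) and rests on few reads. Of 18 progenitor genes, 1 rose and 0 fell, where 3.56% of all genes rose, and their median log2 fold change was -0.28. Without tumour 3, 2 rose and the median turned to 0.16. Cd34, the gene that rose, stayed low, at 13.8, 12.7 and 6.3 FPKM against 0.8 to 3.4 FPKM in the spleens (adjusted p = 0.0388, lost without spleen 2, 3 or 4 or tumour 1 or 2, adjusted p = 0.0649 to 0.112). Il7r, the receptor for the growth factor of early B cells, was at 427, 254 and 70 FPKM in the tumours and at 29.1, 45.9, 59.2 and 62.7 FPKM in the spleens. It did not pass with all 3 tumours (adjusted p = 0.0768) and passed without tumour 3 (log2 fold change 2.79, adjusted p = 0.00563). Rag1, the antigen receptor recombinase, was at 171, 93.7 and 21.8 FPKM in the tumours, below spleen 3, 4 and 5 at 293 to 442 FPKM and around spleen 2 at 90.8 FPKM (adjusted p = 0.194).

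In bulk RNA, fewer cells of a type and less RNA per cell cannot be told apart. Macrophage markers moved in both directions, with more falls. Of 14 macrophage and monocyte markers, 7 fell and 1 rose, where 2.39% of all genes fell and 3.56% rose. Their median log2 fold change was -1.85 (-1.93 without tumour 3, with 7 falls and 0 rises). The summed level of the list was 6673, 2900 and 15441 FPKM in tumours 1, 2 and 3 and 3058 to 8285 FPKM in the spleens, with tumour 3 above each spleen, tumour 1 within their range and tumour 2 below it. Mrc1, the mannose receptor CD206, was at 26.5, 33.6 and 13.6 FPKM in the tumours and at 433, 403, 216 and 285 FPKM in the spleens (log2 fold change -3.78, SE 0.36, adjusted p = 0.00138). Hmox1, the heme oxygenase that breaks down heme from red cells, was at 101, 47.2 and 26 FPKM in the tumours and at 867, 783, 323 and 405 FPKM in the spleens (log2 fold change -3.44, adjusted p = 0.00811). Slc40a1, the iron exporter ferroportin and not a member of that list, was at 57.1, 50.6 and 60.9 FPKM in the tumours and at 957, 824.5, 341 and 435.5 FPKM in the spleens (log2 fold change -3.37, SE 0.36, adjusted p = 0.00208). In each of these genes the groups were far apart, spleen 4 and 5 were the lower spleen libraries, and the call held without any 1 library.

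Csf1r, the receptor for the macrophage growth factor, and Emr1, the F4/80 antigen, fell as well, with log2 fold changes of -1.89 and -3.03 (adjusted p = 0.00988 and 0.0036), and so did Mertk, which takes up dying cells (-1.92, adjusted p = 0.00894). Spic, the factor that red pulp macrophages need, was at 44.8, 26.4 and 24.1 FPKM in the tumours and at 126 to 328 FPKM in the spleens (log2 fold change -2.96, adjusted p = 0.00421), a gene outside the lists that was chosen after its value was seen. Their calls held without any 1 library. Vcam1, an adhesion protein of macrophages and vessels, was at 315, 135 and 176 FPKM against 524 to 1233 FPKM (log2 fold change -2.14, adjusted p = 0.0151), a call lost without spleen 3 or 5 or tumour 2 (adjusted p = 0.0513 to 0.0562). Wild-type spleen B cells had levels of the same order as transgenic ones, at 642 to 1166 FPKM for Hmox1, 879.9 to 1129 FPKM for Slc40a1 and 363 to 447 FPKM for Mrc1. Of the marker list, the 1 rise was Lyz2, lysozyme, at 4149, 1730 and 3052 FPKM in the tumours and 94.2 to 756 FPKM in the spleens (log2 fold change 3.16, adjusted p = 0.03). Lyz2 lost its call without spleen 3 or 5 or any 1 of the 3 tumours (adjusted p = 0.0505 to 0.0845). The part of macrophage content in the other falls was not tested.

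The largest falls did not share a single pattern over the spleen libraries. Among the genes the ranking rule named, C6, a complement component, was at 0.9, 0.8 and 1.2 FPKM in the tumours and at 152, 101, 59.9 and 101 FPKM in the spleens (log2 fold change -6.08, adjusted p = 0.000568). Fcna, a ficolin of spleen and liver macrophages, was at 34.8, 17.7 and 41.8 FPKM in the tumours and at 725, 807.5, 454.5 and 838 FPKM in the spleens (log2 fold change -4.52, SE 0.33, adjusted p = 0.000715). Ccr3, a chemokine receptor best known from eosinophils, was at 2.6, 7.5 and 3.9 FPKM in the tumours and at 91.7 to 231 FPKM in the spleens (log2 fold change -5.07, adjusted p = 0.00104). Apoc1, an apolipoprotein, was listed at 0 in each tumour and at 39.2, 63.5, 9.3 and 41.5 FPKM in the spleens. Hs3st2, which adds sulfate to heparan chains, was likewise listed at 0 in each tumour and at 13.4 to 22.2 FPKM in the spleens. Rbm24, an RNA-binding protein, was at 0 in each tumour and at 5.4, 20.6, 33.2 and 26.9 FPKM in the transgenic spleens, while wild-type spleens held 0 to 1.1 FPKM. Dgki, Kcnj16 and Paqr9 fell by 5.46, 4.56 and 4.32 on the log2 scale, from at least 22.5 FPKM in each spleen library to at most 2 FPKM in each tumour. The calls of these 9 genes held without any 1 library. Cd163, a hemoglobin scavenger receptor of macrophages, was at 0.8, 1 and 24.8 FPKM in the tumours and at 64.7 to 128 FPKM in the spleens (log2 fold change -4.65, adjusted p = 0.0303; -6.04 and 0.000546 without tumour 3). Its call was lost without any 1 of the spleens or without tumour 1 or 2 (adjusted p = 0.0598 to 0.0942).

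**Figure D2:**
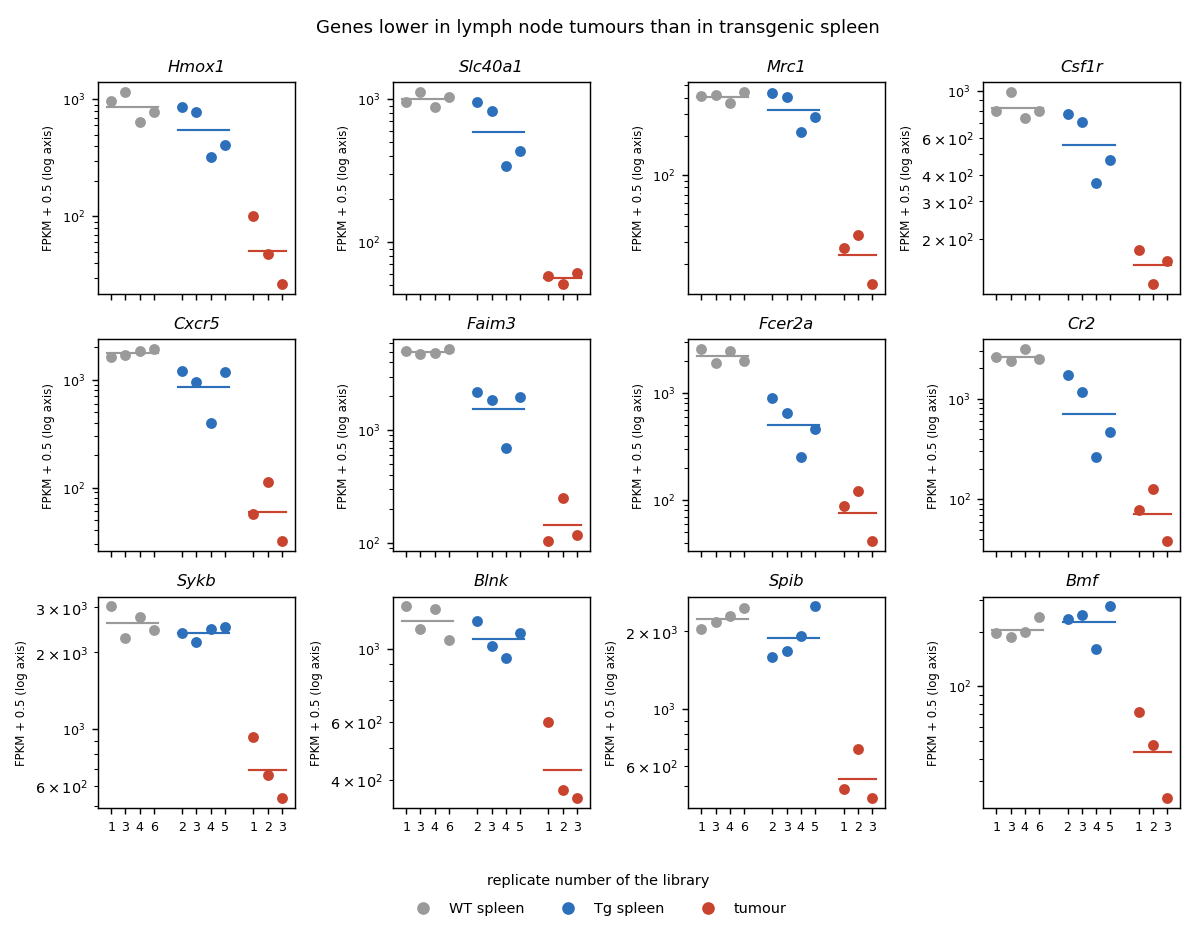
Deposited FPKM (log axis, 0.5 added) of 12 genes that fell, as points per library for wild-type spleen (grey), transgenic spleen (blue) and tumours (red), with a line at each group's geometric mean. The tumour points lie below the transgenic spleen points in each panel, for Cxcr5 at 31.3 to 111 against 393 to 1211 FPKM.

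The largest rises belonged to the pancreas and the salivary glands. All 18 pancreas acinar markers tested rose, where 3.56% of all genes rose, with a median log2 fold change of 7.74 (6.92 without tumour 3). Of these, 4 were listed at 0 in each transgenic spleen library. Markers that low in the spleens pass the filter only through the 3 tumours and cannot be lower there. The count of 18 beside that share is thus a description and not a test. Ctrb1, the digestive protease chymotrypsinogen, was at 809, 452 and 2255 FPKM in the tumours and at 0, 0, 0 and 5.4 FPKM in the spleens (log2 fold change 9.98, SE 0.96, adjusted p = 0.00145). Cela2a, an elastase, was at 297.5, 290 and 1364 FPKM in the tumours and at 0 to 3 FPKM in the spleens (log2 fold change 7.97, adjusted p = 0.00181). Tumour 3 was the highest library for both. Prss2, Pnlip, Amy2a5 and Cpb1, a trypsinogen, the pancreatic lipase, the pancreatic amylase and a carboxypeptidase, rose by 8.43 to 9.11 on the log2 scale. Try5 and Cela3b, further digestive proteases, were listed at 0 in each transgenic spleen library and at 68 to 891 FPKM and 73.1 to 517 FPKM in the tumours. Wild-type spleen libraries were not all empty, with up to 28.6 FPKM of Ctrb1 and 19.5 FPKM of Pnlip. Summed over the 18 genes, tumours 1, 2 and 3 held 3349, 2359 and 14078 FPKM, the transgenic spleens 32 to 47.4 FPKM and the wild-type spleens 49 to 243 FPKM.

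Of 16 salivary gland markers, 8 passed the filter on low values and 7 of these rose, where 3.56% of all genes rose. Members at or near 0 in the spleens pass that filter through the tumours, so this count is a description and not a test. The other 8 were too low to test, so the 7 are not a share of the whole list. Psp, the parotid secretory protein, was at 735, 2985 and 4968 FPKM in the tumours and was listed at 0 in each transgenic spleen. Amy1, the salivary amylase, was at 320, 806 and 1082 FPKM in the tumours and at 0 to 1 FPKM in the spleens (log2 fold change 9.46, SE 0.54, adjusted p = 0.000465). Smr3a, a gene of the submaxillary gland, was at 100, 360 and 708 FPKM in the tumours and at 0, 0, 1.2 and 0 FPKM in the spleens. Salivary genes were lowest in tumour 1 and pancreas genes in tumour 2, and tumour 3 was highest in both sums. The summed salivary level was 1324, 4670 and 7508 FPKM in tumours 1, 2 and 3. The calls of the genes named in this and the preceding paragraph held without any 1 library.

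Connective tissue genes rose in all 18 members tested of the fibroblast and matrix list, where 3.56% of all genes rose. Their median log2 fold change was 3.85 (3.82 without tumour 3). Of the 18, 1 was listed at 0 in each transgenic spleen and passed the filter only through the tumours. Col3a1, a chain of fibrillar collagen, was at 80.6, 206 and 243 FPKM in the tumours and at 1.2, 1.5, 1.8 and 4.5 FPKM in the spleens (log2 fold change 6.00, adjusted p = 0.00109). Dcn, the matrix proteoglycan decorin, was at 102, 104 and 123 FPKM in the tumours and at 1, 0.6, 0 and 0.7 FPKM in the spleens (log2 fold change 6.78, SE 0.46, adjusted p = 0.000582). The tumours were nearly equal in Dcn, unlike in the gland genes. Summed over the list, the tumours held 958, 1151 and 1207 FPKM and the spleens 43.8 to 76 FPKM. Of the 18 calls 15 held without any 1 library. Among 12 endothelial markers 3 rose and 0 fell, where 3.56% of all genes rose. Lyve1, of lymphatic vessels, was at 43, 40.1 and 39.5 FPKM in the tumours and at 0 to 1.8 FPKM in the spleens, and Glycam1, a glycoprotein made by lymph node venules, was at 25.1, 62.2 and 13.1 FPKM against 0 in each spleen. Madcam1, the homing ligand of mucosal venules, was at 15.3, 6.3 and 8.2 FPKM against 0 to 0.7 FPKM (adjusted p = 0.00811), and these 3 calls held without any 1 library. Pecam1, which lymphocytes share, was not higher (log2 fold change -0.35, adjusted p = 0.555).

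Erythroid, T cell and fat cell markers were higher in part. Over all genes tested, 3.56% rose and 2.39% fell. Of 8 erythroid markers tested 3 rose, and each call held without any 1 library. Alas2, the first enzyme of heme synthesis in red cells, was at 292, 207 and 208 FPKM in the tumours and at 31, 40.9, 40.3 and 31.2 FPKM in the spleens (log2 fold change 2.69, SE 0.23, adjusted p = 0.000828). Hbb-b1 and Hba-a2, globin chains, rose by 4.97 and 4.06 on the log2 scale from at most 5 FPKM in the spleens. Of 15 T cell markers 4 rose and 0 fell, and 5 rose without tumour 3. Cd3e was at 38.6, 143 and 62.8 FPKM in the tumours and at 4.8 to 14.6 FPKM in the spleens (log2 fold change 2.97, adjusted p = 0.0213), with tumour 2 the highest. Its call was lost without spleen 3 or 5 or tumour 2 (adjusted p = 0.0527 to 0.0655). Zap70, Cd6 and Cd3g, further T cell signalling and surface genes, rose by 1.44, 3.12 and 3.43 on the log2 scale (adjusted p = 0.0158, 0.0263 and 0.0442). Each of these calls was lost without spleen 3 or tumour 2, that of Cd6 also without spleen 5 and that of Cd3g also without spleen 2 or 5 or tumour 3 (adjusted p = 0.0544 to 0.127 over the 3 genes). Cd4, at 135, 145 and 9468 FPKM against 6.1 to 36.6 FPKM, passed without tumour 3 (adjusted p = 0.0401) and not with it (adjusted p = 0.0855). The T cell list summed to 931, 1886 and 17953 FPKM in tumours 1, 2 and 3 and 364 to 595 FPKM in the spleens. Most of the sum in tumour 3 came from Cd4 and Cd8b1, which some dendritic cells also carry. Of 6 adipocyte markers tested Cfd and Cidec rose and Pparg fell (adjusted p = 0.022, 0.0183 and 0.0143), each call being lost without spleen 3 and the rises also without tumour 2, Cfd without spleen 5 and Cidec without spleen 2 (adjusted p = 0.0504 to 0.0748). Adipoq, the fat hormone adiponectin, was at 1, 5.4 and 7.6 FPKM against 0 to 0.8 FPKM (adjusted p = 0.0889, and 0.0402 without tumour 1). Of 10 NK cell markers Gzmb, the protease granzyme B, rose (log2 fold change 2.89, adjusted p = 0.0352), a call lost without any 1 library but spleen 2 (adjusted p = 0.056 to 0.097). The filter on low values had left out 2 erythroid, 3 adipocyte, 1 endothelial, 1 platelet, 5 muscle and 5 epithelial markers. In the remaining lists, 0 of 9 neutrophil, 8 dendritic cell, 6 platelet, 7 muscle and 4 epithelial markers were called in limma (2, 2, 2, 3 and 0 at an unadjusted p under 0.05). The part that gland, stroma, T cell and red cell RNA plays in the other rises was not tested.

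Other large rises were found among genes with a mean of 20 FPKM or more in each group. C3 and Cfb, proteins of the complement cascade, were named by the ranking rule. C3 was at 703, 328 and 785 FPKM in the tumours and at 47, 32.3, 8.7 and 19.3 FPKM in the spleens (log2 fold change 4.62, SE 0.56, adjusted p = 0.00368). Cfb was at 252, 138 and 334 FPKM against 13.3 to 41.3 FPKM (log2 fold change 3.21, adjusted p = 0.00539). Tumour 2 was the lowest tumour for both, as it was for the pancreas sum. Cela1, which is also counted in the pancreas list above, and Ctrl, 2 pancreatic proteases with some signal in the spleens as well, rose by 3.55 and 3.24 on the log2 scale. S100a4, a calcium-binding protein, was at 365, 318 and 1550 FPKM against 76.9 to 115 FPKM (log2 fold change 2.58, adjusted p = 0.0258; 1.85 and 0.00394 without tumour 3), a call lost without any 1 of the spleens (adjusted p = 0.0538 to 0.0832).

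Bsn was more even within each group than C3, Cfb and S100a4. It encodes Bassoon, a protein of nerve terminals, and was at 101.5, 96.5 and 146 FPKM in the tumours and at 17.5, 19.3, 24.6 and 19.7 FPKM in the spleens (log2 fold change 2.46, SE 0.26, adjusted p = 0.0021). In wild-type spleen it was at 5.8 to 9.5 FPKM. Car12, a carbonic anhydrase at the cell surface, was at 165, 176 and 332.5 FPKM in the tumours and at 25.6, 40.8, 60.5 and 34.6 FPKM in the transgenic spleens (log2 fold change 2.45, adjusted p = 0.00768), and at 0.7 to 1.2 FPKM in wild-type spleen. Slc39a10, a zinc importer, was at 387, 358.5 and 590 FPKM in the tumours and at 114 to 161 FPKM in the spleens (log2 fold change 1.67, SE 0.23, adjusted p = 0.00572). Car12 and Slc39a10 were chosen after their values were seen. For these 3 genes the lowest tumour was at least as high as 2 times the highest transgenic spleen library, and the calls held without any 1 library.

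**Figure D3:**
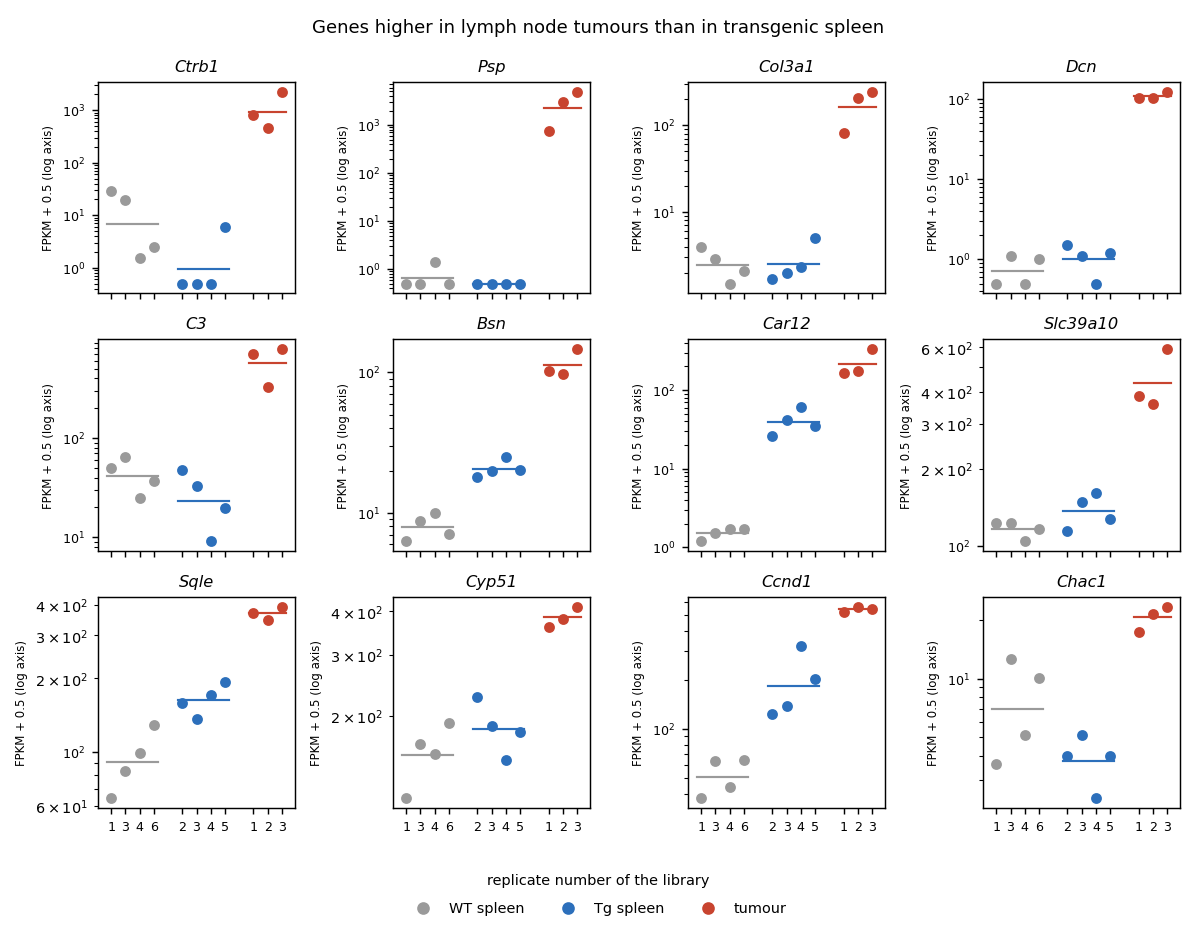
Deposited FPKM (log axis, 0.5 added) of 12 genes that rose, as points per library for wild-type spleen (grey), transgenic spleen (blue) and tumours (red), with a line at each group's geometric mean. The tumour points lie above the transgenic spleen points in each panel, by the widest margin for Psp at 735 to 4968 FPKM against 0.

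Among metabolic lists, cholesterol synthesis and the response to amino acid shortage held called members. Of 23 cholesterol genes tested, 5 rose and 0 fell, where 3.56% of all genes rose, and the median log2 fold change was 0.42. Sqle, squalene epoxidase, was at 370, 347 and 394 FPKM in the tumours and at 157, 136, 169.5 and 192 FPKM in the spleens (log2 fold change 1.18, SE 0.17, adjusted p = 0.00818), a call that held without any 1 library. Cyp51, which removes a methyl group from lanosterol, was at 361, 379.8 and 412 FPKM in the tumours and at 148 to 225 FPKM in the spleens (log2 fold change 1.07, adjusted p = 0.0164), a call lost without spleen 3 (adjusted p = 0.0639). Sc5d, a desaturase, rose by 0.73 on the log2 scale (adjusted p = 0.0442), a call lost without any 1 library (adjusted p = 0.0756 to 0.127). Leaving out 1 library in turn left 1 to 5 rises in this list. Hmgcs1 was listed at 0 in each library, as can happen to a gene whose level could not be estimated.

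Of 22 genes of the amino acid shortage response, 4 rose and 0 fell, where 3.56% of all genes rose, and the median log2 fold change was 0.58. Dropping 1 library in turn left 1 to 6 rises. Chac1, an enzyme that breaks down glutathione, was at 16.9, 21.2 and 23.1 FPKM in the tumours and at 3.5, 4.6, 1.9 and 3.5 FPKM in the spleens (log2 fold change 2.47, SE 0.40, adjusted p = 0.0122), and this call held without any 1 library. Asns, asparagine synthetase, was at 359.8, 218.5 and 378 FPKM in the tumours and at 50.3, 67.3, 167.5 and 117 FPKM in the spleens (log2 fold change 1.77, adjusted p = 0.0455). The groups did not overlap, but the call of Asns was lost without spleen 2, 3 or 5 or any 1 of the tumours (adjusted p = 0.0674 to 0.130). Nupr1, a stress factor, rose by 2.89 on the log2 scale (adjusted p = 0.0219), a call lost without spleen 2 or 3 (adjusted p = 0.0519 and 0.0639). Vldlr was at 1.1 to 2 FPKM against 0 to 0.1 FPKM (adjusted p = 0.033), a call lost without any 1 library (adjusted p = 0.055 to 0.0945). The RNA of Atf4, the factor that drives this response, was not higher, at 721, 490 and 406 FPKM against 691 to 864 FPKM (log2 fold change -0.54, adjusted p = 0.206). Only RNA was measured, so the level of the Atf4 protein is not known here. Glycolysis, hypoxia and polyamine lists held 0 called genes of 21, 20 and 10, where 5.95% of all genes were called. At an unadjusted p under 0.05 in limma they held 3 higher and 2 lower, 3 higher, and 3 lower genes. Of 24 nucleotide synthesis genes Ctps2 fell (log2 fold change -0.86, adjusted p = 0.0481), where 2.39% of all genes fell. The call of Ctps2 was lost without any 1 library (adjusted p = 0.0513 to 0.140). Ldha, lactate dehydrogenase, overlapped at 3132, 3464 and 1664 FPKM against 1116 to 3126 FPKM (adjusted p = 0.545). Vegfa, a growth factor for vessels, was at 200, 82.8 and 34.8 FPKM in the tumours and at 9.3 to 31.5 FPKM in the spleens, and passed without tumour 3 (log2 fold change 2.69, adjusted p = 0.0341) but not with it (2.07 and 0.101).

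Genes of p53 and of cell death showed few shared changes. Of 24 genes tested of the Arf and p53 list, 0 rose and 2 fell, where 2.39% of all genes fell. With 1 library left out in turn there were 1 to 3 falls and 0 to 2 rises. Trp53inp1, a p53 target of the stress response, was at 454, 512 and 524.5 FPKM in the tumours and at 1418, 1347, 1198 and 1464 FPKM in the spleens (log2 fold change -1.45, SE 0.18, adjusted p = 0.00389), a call that held without any 1 library. Rrm2b, a ribonucleotide reductase chain under p53 control, fell by 1.03 on the log2 scale (adjusted p = 0.0252), a call lost without spleen 3, 4 or 5 or tumour 1 or 2 (adjusted p = 0.0501 to 0.0826). Trp53 itself was at 523.5, 479.9 and 363 FPKM in the tumours and at 484, 537, 758 and 672 FPKM in the spleens, with overlap (adjusted p = 0.31). Of 18 genes tested of the Bcl2 family, 0 rose and 2 fell, where 2.39% of all genes fell. Bmf, which promotes cell death by binding Bcl2 proteins, was at 72.1, 47 and 23.7 FPKM in the tumours and at 233, 246, 160 and 275 FPKM in the spleens (log2 fold change -2.36, SE 0.37, adjusted p = 0.0105), and its call held without any 1 library. Mcl1, which blocks cell death, was at 1370, 1172 and 833 FPKM against 1806 to 2981 FPKM (log2 fold change -1.20, adjusted p = 0.0409), a call lost without spleen 2, 3 or 5 or any 1 of the tumours (adjusted p = 0.0574 to 0.120). Bcl2, another such protector, was at 67.3, 111 and 31.5 FPKM in the tumours and at 286, 219, 75.3 and 112 FPKM in the spleens, with overlap (adjusted p = 0.203).

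Lists of immune signalling held few called members. Of 22 NF-kB and immediate early genes, 0 rose and 2 fell, where 2.39% of all genes fell, with a median log2 fold change of -1.07 (-0.93 without tumour 3), and leaving out 1 library in turn left 0 to 4 falls. Egr3, a factor switched on within minutes of receptor signals, was at 6.8, 10.2 and 1.7 FPKM in the tumours and at 89.7, 79.9, 34.9 and 45 FPKM in the spleens (log2 fold change -3.39, adjusted p = 0.0168), a call lost without spleen 2, 3 or 5 (adjusted p = 0.0505 to 0.0648). In wild-type spleen Egr3 was at 124 to 311 FPKM. Jund, a subunit of AP-1, fell by 0.98 on the log2 scale (adjusted p = 0.0296), a call lost without spleen 2, 3 or 5 or tumour 2 or 3 (adjusted p = 0.0588 to 0.0989). In limma, 8 of 20 genes of MHC and antigen presentation had an unadjusted p under 0.05 with all tumours, 1 higher and 7 lower. Among all 14692 genes tested, 3409 had such a p in limma, 1799 higher and 1610 lower. Of the 20, 0 fell without tumour 3 and 2 fell with all tumours, where 2.39% of all genes fell. These were H2-DMb2 and H2-Oa, which steer the loading of class II molecules, with log2 fold changes of -1.47 and -1.58 (adjusted p = 0.0397 and 0.0406), and both calls were lost without any 1 library but spleen 4 (adjusted p = 0.0638 to 0.118). H2-Aa, a class II chain, was at 5019, 3253 and 11889 FPKM in the tumours and at 6090 to 15752 FPKM in the spleens, with tumours 1 and 2 below each spleen and tumour 3 within their range. Of 21 interferon-stimulated genes, whose median log2 fold change was 0.24 (-0.17 without tumour 3), 0 rose and Gbp3 fell (log2 fold change -1.38, adjusted p = 0.0352), a call lost without spleen 2, 3 or 5 or tumour 1 or 3 (adjusted p = 0.0664 to 0.108). Leaving out 1 library in turn gave 0 to 3 rises and 0 to 2 falls in that list. Of 17 genes of polycomb and DNA methylation 0 rose and Tet1 fell (log2 fold change -2.27, adjusted p = 0.0412), from 6.5 to 15.1 FPKM in the spleens, a call lost without any 1 library but tumour 3 (adjusted p = 0.0566 to 0.124). Of 21 trafficking genes, Cxcr5 and S1pr1 were the 2 that fell.

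**Figure D4:**
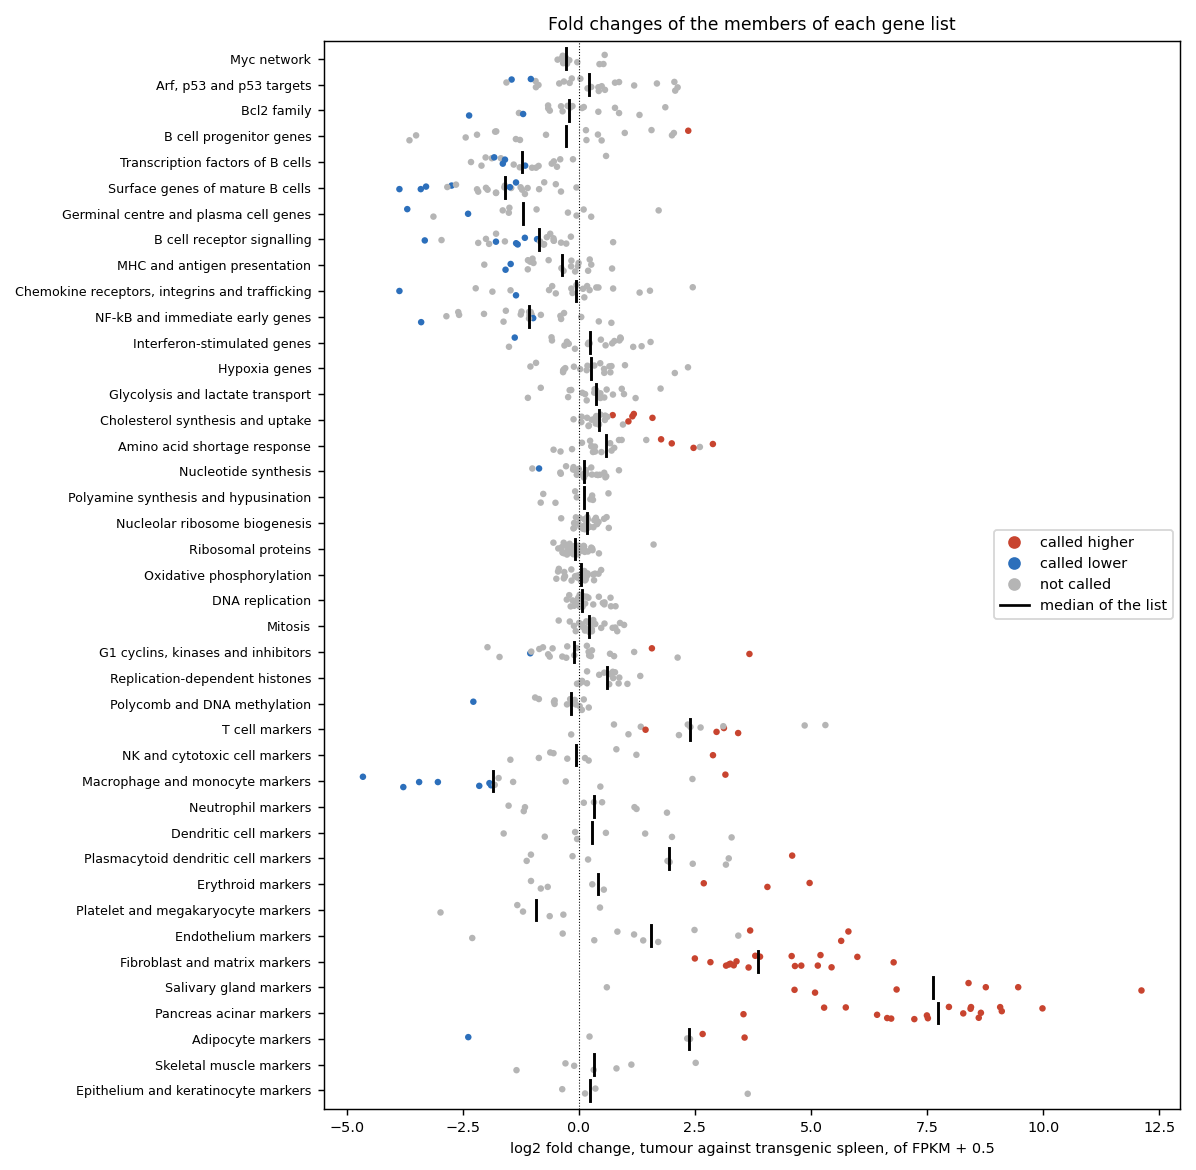
Log2 fold change (tumours against transgenic spleen) of each tested member of the 41 gene lists, 1 row of points per list, coloured by whether the gene was called higher, lower or not, with a black bar at the list's median. Pancreas, salivary gland and matrix lists lie to the right with medians of 7.74, 7.62 and 3.85, while macrophage and mature B cell lists lie to the left with medians of -1.85 and -1.60.

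MicroRNA genes were examined next, since Myc is known to bind and raise the host gene of the miR-17-92 cluster. These rows count reads of the precursor hairpins in libraries of long RNA, not mature microRNAs, and reads of the host transcript can be counted in them. The clusters were chosen after their values were seen. The mature sequences, from RefSeq annotation of GRCm38.p6, are shown because they group the members by their seed, bases 2 to 8, which are in capitals and choose the target messages. The first 6 lie on chromosome 14 in the miR-17-92 cluster and the last 3 on chromosome 5 in the miR-106b-25 cluster. For miR-92a of the first cluster only the sequence is shown, and its precursor level was not analysed here.
mmu-miR-17-5p: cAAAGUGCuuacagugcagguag
mmu-miR-18a-5p: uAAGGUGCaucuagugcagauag
mmu-miR-19a-3p: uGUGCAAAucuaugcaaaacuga
mmu-miR-20a-5p: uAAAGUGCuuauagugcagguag
mmu-miR-19b-3p: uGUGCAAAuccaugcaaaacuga
mmu-miR-92a-3p: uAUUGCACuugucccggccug
mmu-miR-106b-5p: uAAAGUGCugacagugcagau
mmu-miR-93-5p: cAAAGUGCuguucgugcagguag
mmu-miR-25-3p: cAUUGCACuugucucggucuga
miR-17, miR-20a, miR-106b and miR-93 share 1 seed across both clusters, miR-92a and miR-25 also share a seed across them, miR-19a and miR-19b share another within the first cluster, and miR-18a has a seed of its own among these 9.

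The miR-17-92 host and the precursors of miR-18a and miR-19a rose. Mir17hg, the host transcript, was at 539, 477 and 379 FPKM in the tumours and at 117, 114, 219 and 247 FPKM in the transgenic spleens (log2 fold change 1.49, SE 0.32, adjusted p = 0.0337), and at 84.8 to 137 FPKM in wild-type spleen. Each tumour was above each spleen, and spleen 4 and 5 were nearest. The call was lost without spleen 2 or 3 or tumour 1 or 2 (adjusted p = 0.0772 to 0.0942). Mir18 was at 666, 833 and 646 FPKM in the tumours and at 152, 140.5, 134.5 and 282 FPKM in the spleens (log2 fold change 2.07, SE 0.28, adjusted p = 0.00556), a call that held without any 1 library. From the hairpin length and the spacing of values, this comes to 53, 72 and 53 reads in the tumours and 16, 13, 17 and 40 reads in the spleens. Mir19a rose by a smaller margin (log2 fold change 1.36, adjusted p = 0.047), at 25, 46 and 41 against 15, 12, 19 and 42 reads. Its call was lost without spleen 2, 3 or 4 or tumour 2 or 3 (adjusted p = 0.0836 to 0.136).

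Neighbours in the same transcript differed in how many reads they held. Mir20a was at 270.5, 363 and 230 FPKM in the tumours and at 42.7, 67.9, 85.2 and 203 FPKM in the spleens, without overlap, and did not pass (log2 fold change 1.74, adjusted p = 0.0685). Mir17 overlapped, at 143.5, 92.6 and 55.7 FPKM against 36.2 to 72.6 FPKM (adjusted p = 0.228), from 4 to 10 reads a library. Mir19b-1 held 0 to 2 reads, too few to compare. In the second cluster Mir93 and Mir25 lay above the spleens without overlap and did not pass (log2 fold changes 1.33 and 2.07, adjusted p = 0.0589 and 0.0685), and Mir106b overlapped (adjusted p = 0.231). Mcm7, the replication gene in which they lie, was at 944, 865 and 590 FPKM in the tumours and at 384, 665, 1334 and 1089 FPKM in the spleens (log2 fold change 0.01, adjusted p = 0.995). Of all 197 microRNA rows tested, 9 rose and 3 fell (6.09% called), against 5.95% of all genes, though their median log2 fold change was 0.58.

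**Figure D5:**
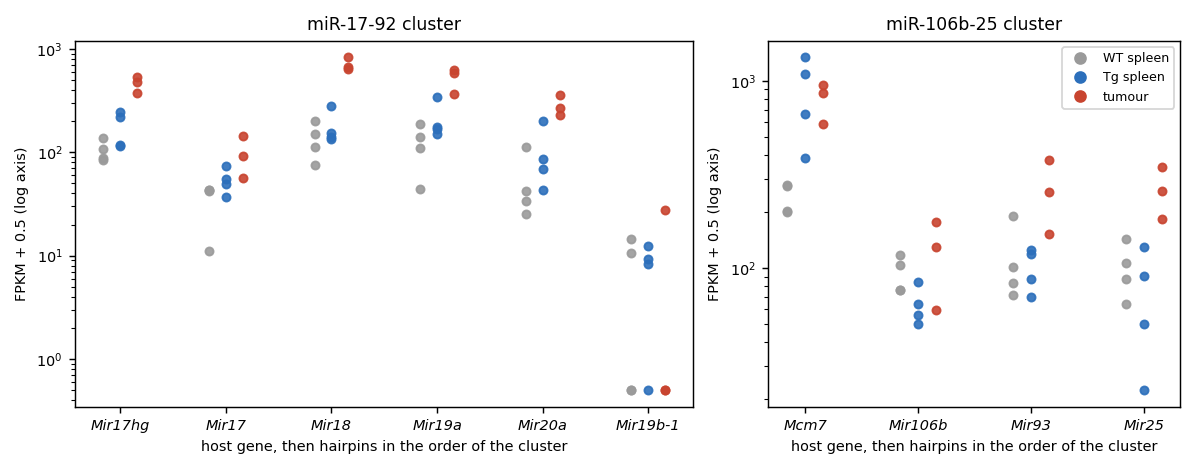
Deposited FPKM (log axis, 0.5 added) of the precursor rows of the miR-17-92 cluster (without miR-92a) with its host Mir17hg and of the miR-106b-25 cluster with its host Mcm7, as points per library for wild-type spleen (grey), transgenic spleen (blue) and tumours (red). Mir18 lies at 646 to 833 FPKM in the tumours against 134.5 to 282 FPKM in the transgenic spleens, while Mcm7 overlaps.

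The tumours differed among themselves, tumour 3 in the most genes. Among the 12926 tested genes with ordinary names (no predicted genes, small RNAs or antigen receptor genes), and at a higher value of 20 FPKM or more, tumour 3 was at least 4-fold above both other tumours in 403 and at least 4-fold below both in 187. For tumour 1 these numbers were 65 and 70, and for tumour 2 they were 61 and 27. These are counts without a test, since each tumour is 1 library, and the genes below were chosen after their values were seen.

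Tumour 2 differed from the other tumours in Cdkn2a and in some p53 targets. Cdkn2a, the locus of p16 and Arf, was at 5.2, 502 and 12.6 FPKM in tumours 1, 2 and 3 and at 8.9 to 37.6 FPKM in the spleens. The p53 targets Zmat3, Phlda3 and Bbc3, the last of which encodes the death factor Puma, were low in the same tumour. Zmat3 was at 203, 23.7 and 126 FPKM in the tumours and at 13.8 to 37.7 FPKM in the spleens. Phlda3 was at 64.1, 8.3 and 90.1 FPKM in the tumours and at 6.9 to 9.3 FPKM in the spleens, so tumour 2 resembled the spleens and the others were higher. Bbc3 was at 100, 25.3 and 202.5 FPKM in the tumours and at 34.7 to 58.6 FPKM in the spleens. None of these 3 targets passed the test of tumours against spleen (adjusted p = 0.139 to 0.489). Over the 26 members of the list, tumour 2 was the lowest tumour in 14 and the highest in 2, and the list summed to 5590, 5057 and 7007 FPKM in tumours 1, 2 and 3 and 6746 to 7638 FPKM in the spleens. Cd36, a fatty acid receptor, and Dtx1, a regulator of Notch signals in marginal zone B cells, were at 884 and 483.5 FPKM in tumour 2, where the spleens held 222 to 509 and 140 to 433 FPKM and the other tumours at most 84.9 and 20.5 FPKM.

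Tumour 1 was low in interferon-stimulated genes and high in several genes of early B cells. Ifit3 was at 6, 141 and 108 FPKM in tumours 1, 2 and 3 and at 21.7 to 92.9 FPKM in the spleens, and Irf7, the factor that amplifies interferon production, was at 37.6, 260 and 641 FPKM against 105 to 229 FPKM. The summed level of the interferon list was 1418, 4081 and 6766 FPKM in the tumours and 2124 to 4810 FPKM in the spleens, so tumour 1 lay below and tumour 3 above each spleen library. Igll1, a surrogate light chain of pre-B cells, was at 90.1 FPKM in tumour 1 and listed at 0 in tumours 2 and 3, with 2.1 to 75.1 FPKM in the spleens. Cd93, carried by immature B cells, was at 1198, 444 and 41.8 FPKM in the tumours and at 130 to 309 FPKM in the spleens. Lef1, a transcription factor of early B cells, was at 431, 75.1 and 18.6 FPKM in the tumours and at 32.4 to 149 FPKM in the spleens. Other progenitor genes did not stand above the spleens in tumour 1. Vpreb3 was at 2103 FPKM there and at 648 to 2487 FPKM in the spleens, and Rag1, given above, also lay within the spleen range. The progenitor list summed to 4746, 2540 and 1276 FPKM in tumours 1, 2 and 3 and to 1081, 1951, 3987 and 3681 FPKM in spleen 2 to 5. Tumour 3 also had the highest values of Bcl2l1, which encodes the death blocker Bcl-xL, at 63.6, 59 and 1571 FPKM in the tumours and 27.4 to 76.9 FPKM in the spleens. Cdh1, the adhesion protein E-cadherin, was at 1.6, 4 and 431 FPKM in the tumours and at 0.5 to 1.4 FPKM in the spleens.

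The controls fell into pairs as well, and this touches the growth genes above. Summed mitosis genes were at 5200 and 7930 FPKM in spleen 2 and 3 and at 20263 and 13474 FPKM in spleen 4 and 5, and summed DNA replication genes at 7263 and 9910 against 19882 and 15858 FPKM. The mature B cell surface sum was lowest in spleen 4, at 40721 FPKM, and highest in spleen 5, at 63148 FPKM. The pair with more mitosis RNA is the pair with Y chromosome genes and low Rpph1, and these differences cannot be told apart. Against spleen 2 and 3 alone, 145 genes were higher in the tumours and 107 lower, and against spleen 4 and 5 alone 111 and 25. With the class of Xist or Y genes as a covariate in the fit, an alternative added after seeing the data, 559 genes were higher and 441 lower, of which 471 and 320 were main calls.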

How the data were processed

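Total RNA was extracted with Trizol and depleted of ribosomal RNA with Ribo-Zero, per the labels' protocols. The submitters' processing notes name the genome build mm9, TopHat, TopHat2 2.0.8, SAMtools and HTSeq 0.5.3p9, with no role or order. FPKM values per gene are as the authors deposited them, per the file headers, with 1 decimal, and how they were scaled is not given in the sources used here. From them, log2(FPKM + 0.5) was computed for genes at 1 FPKM or more in at least 3 of the 7 libraries. The 3 tumours were compared with the 4 transgenic spleens in limma 3.58.1 (R 4.3.3, moderated test with trend and robust settings, two-sided, 5 residual degrees of freedom before moderation). The p-values were adjusted by Benjamini-Hochberg over all genes tested, and a gene was called at 0.05. The fit was tested on simulated data. Tables were made with Python 3.11.15, NumPy 2.4.6 and pandas 2.3.3, and plots with Matplotlib 3.10.9. The files hold no counts, so no counting interval is given. Members and gene lists were chosen with earlier results of these data known.

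Named genes are Myc and the 10 largest rises and falls among called genes with a mean of 5 FPKM or more in the higher group. They also include the 8 largest rises and falls among called genes with a mean of 20 FPKM or more in each group. Up to 3 called genes of each list in each direction were added (the most abundant member where none was called). Predicted genes, small RNAs and antigen receptor genes were left out, and all other genes named were chosen after their values were seen. Fibroblast libraries of the series were not used here. Some genes that these rules name are not reported here. Alternatives were other pseudocounts, filters, scalings and fits, and leaving out each library.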

Additional observations from a re-analysis of the deposited data

Results flagged for a closer look

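In 7 of 92 named genes tested, 1 transgenic spleen library stood apart from the other 3 by the gap of its value relative to the group's range. For normally distributed values chance gives about 5% of genes. That share does not apply to values so near 0, so the 7 cannot be set against it. Spleen 5 was the library apart for Ctrb1 at 5.4 FPKM, Pnlip at 2.7 FPKM, Amy2a5 at 0.9 FPKM, Lyve1 at 1.8 FPKM, Hba-a2 at 1.2 FPKM and Vldlr at 0.1 FPKM. Spleen 4 was the library apart for Smr3a at 1.2 FPKM. All 7 values are within a few FPKM of 0, and the other spleen libraries held 0 to 0.3 FPKM of these genes.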

How the results depend on the processing

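Of 83 named genes called, 48 were called under each alternative that kept every library or left out 1, and 0 changed direction under any of 22 alternatives. The number of genes higher and lower (523 and 351) moved to 324 and 294 with a filter of 5 FPKM, 1215 and 1145 with array weights and 1065 and 1093 with wild-type spleen in the fit as another group. List members called (108) moved to 199 and 177 under the last 2 of these. Against spleen 2 and 3 alone the counts were 145, 107 and 63 list members, and against spleen 4 and 5 alone 111, 25 and 38. Leaving out 1 library gave 204 to 506 higher genes, 93 to 414 lower genes and 61 to 108 list members. Among alternatives added after seeing the data, 1 gene was higher, 0 lower and 1 list member called in the libraries with Xist only, and 0, 0 and 0 in those with Y genes only, where fewer samples remain (limma, with 3044 and 2177 genes at an unadjusted p under 0.05). With a replicate block over the shared numbers 2 and 3, 0 genes were higher, 0 lower and 0 list members called in limma, from 4 libraries, with 2292 genes at an unadjusted p under 0.05. The labels do not say whether a shared number pairs the samples. The correlation of deviations was -0.02 for number 2 and 0.06 for number 3. Between other numbers it was -0.19 to 0.22, so these few correlations cannot decide it.

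Reversed log2 fold changes occurred only in genes not called, and the cause was not tested. They were 0.066 for Pcna and -0.46 for Rplp1 with array weights. With the replicate block, and equally in the Xist libraries, they were 0.27 for Itga2b, 0.13 for Pcna, -0.17 for Rplp1 and -0.22 for S100a9. Against spleen 2 and 3 alone they were 0.25 for Pcna, -0.20 for Rplp1 and -0.46 for S100a9. Against spleen 4 and 5 alone they were -0.12 for Eif5a, -0.025 for Hist1h4d, -0.062 for Ldha, -0.15 for Npm1 and -0.45 for Top2a. Leaving out 1 library gave -0.013 to 0.30 for Npm1 and -0.10 to 0.57 for Top2a (lowest without spleen 2), -0.17 to 0.22 for Rplp1 (lowest without tumour 3) and -0.51 to 0.48 for S100a9 (lowest without tumour 2). They were -0.013 for Rplp1 and -0.054 for S100a9 with the Xist or Y class as a covariate, and -0.17 for Flt3, -0.044 for Npm1 and -0.37 for Top2a in the Y libraries. Depth limits values of a few FPKM, which rest on a few reads.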
